A study of Mus musculus with 25 samples.

Results

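The nuclear genes of oxidative phosphorylation were examined in mouse jejunum as 77 of the 24089 genes of the UMI table. They were chosen by name: Nduf genes of the a, b, c, s and v series, Sdha to Sdhd, Uqcr genes, Cox4 to Cox8 genes, Atp5 genes and Cycs, leaving out names that mark a pseudogene (-ps). By those names 35 belonged to complex I, 4 to complex II, 8 to complex III, 12 to complex IV and 17 to complex V, and Cycs encodes cytochrome c. Some names are historical: Ndufa4 is now placed in complex IV, and Cox7a2l encodes a supercomplex factor. Atp5s and Atp5sl are now named Dmac2l and Dmac2, after a distal membrane arm factor. Their Atp5 names thus need not mark ATP synthase subunits. Laser capture microdissection (LCM), in which a laser cuts chosen areas from a frozen section, was used on the jejunum of 2 untreated male C57BL/6 mice aged 3 months. The 5 segments were the bottom of a neighbouring villus (VB), the bottom and the top of the follicle-associated epithelium (FAEB and FAET), and the bottom and the top of the isolated lymphoid follicle under it (ILFB and ILFT). Each segment had 5 repeats. Mouse 1 gave repeats 1 and 2, mouse 2 gave the other 3, and a repeat pooled several follicles of its mouse. All 25 libraries carried unique molecular identifiers (UMIs), which count each captured transcript once, at its 3′ end.

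Oxidative phosphorylation passes electrons from NADH and succinate through complexes I to IV to oxygen, with ubiquinone and cytochrome c as carriers, and complex V uses the resulting proton gradient to make ATP. Most subunits are encoded in the nucleus and imported, and a small set of core subunits of complexes I, III, IV and V is encoded in mitochondrial DNA. In the small intestine, absorptive enterocytes are rich in mitochondria, whereas resting follicle lymphocytes hold little cytoplasm.

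The libraries held 21529 to 213736 UMIs, and 1507 to 14002 genes with a UMI. Markers did not follow the label everywhere. Summed shares of 16 pan-epithelial genes (such as Epcam and Vil1) and 16 pan-leukocyte genes (such as Ptprc and Coro1a) were compared within each library. In 6 libraries the list of the other compartment was the larger: VB repeat 5, FAET repeat 1, ILFB repeat 5 and ILFT repeats 1, 3 and 4. Pan-epithelial genes took 3.05 to 90.0 UMIs per 10,000 in the 15 epithelial libraries and 0.936 to 87.4 in the 10 ILF libraries, and pan-leukocyte genes took 5.57 to 103 and 8.91 to 109.8. Within single segments, Elf3 of the epithelial list and Cytip and Itgb2 of the leukocyte list were at 0 in the FAET, and no other marker was at 0 in all libraries of a segment. Each result below is therefore also given without these 6 libraries where that changes it. FAET repeats 2 and 3 were the smallest libraries, with 21529 and 23314 UMIs and 1507 and 1956 genes with a UMI. In these bulk libraries, fewer cells of a type and less RNA per cell cannot be told apart.

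Promoter windows of 250 bases before to 50 bases after the start site were available from RefSeq (GRCm38.p6) for 66 of the 77 members, as 72 windows. The core of the NRF1 site (GCGCANGCG, either strand) was in 22 windows, or 30.6%, against 8.5% of the 21191 windows of other protein-coding genes. The ETS site bound by GABP (CCGGAAG) was in 22.2% against 11.5%, the YY1 site (AAGATGGC) in 16.7% against 3.01%, and the site of the estrogen-related receptors (TCAAGGTCA) in 2.78% against 0.326%. Over all windows of the table, those 4 shares were 6.25%, 8.86%, 2.75% and 0.423%. The ETS and YY1 letters can share 3 bases. Windows of the same gene can overlap, so that a match can count more than once. The NRF1 match of Ndufa5 and the YY1 match of Atp5sl did so. These are matches of letters, and no binding was measured. Members also had more CpG pairs in the window, with a median of 20 and a range of 5 to 43, against a median of 13 in protein-coding windows. Cox7a1, the member that passed the test below, had 7 CpG pairs and none of the 4 motifs, and its paralog Cox7a2 had 20 and also none. Both are shown, with Cycs, Ndufs3 and Ndufs4 as examples that hold an NRF1, an ETS and a YY1 match. They are read 5′ to 3′ along each gene, with matches in capitals.
Cox7a1, chr7:30183921-30184220, plus strand: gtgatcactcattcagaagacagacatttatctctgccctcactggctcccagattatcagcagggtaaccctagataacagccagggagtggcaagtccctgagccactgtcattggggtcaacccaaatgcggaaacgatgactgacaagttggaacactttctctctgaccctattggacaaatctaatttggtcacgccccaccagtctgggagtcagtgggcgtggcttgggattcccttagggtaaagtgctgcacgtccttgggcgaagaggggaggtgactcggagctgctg
Cox7a2, chr9:79759804-79760103, minus strand: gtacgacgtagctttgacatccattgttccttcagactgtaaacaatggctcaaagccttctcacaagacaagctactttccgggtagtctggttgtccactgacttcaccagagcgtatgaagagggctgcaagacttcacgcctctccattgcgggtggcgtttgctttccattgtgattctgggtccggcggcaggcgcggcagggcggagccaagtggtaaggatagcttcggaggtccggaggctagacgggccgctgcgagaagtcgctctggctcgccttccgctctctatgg
Cycs, chr6:50566520-50566819, minus strand: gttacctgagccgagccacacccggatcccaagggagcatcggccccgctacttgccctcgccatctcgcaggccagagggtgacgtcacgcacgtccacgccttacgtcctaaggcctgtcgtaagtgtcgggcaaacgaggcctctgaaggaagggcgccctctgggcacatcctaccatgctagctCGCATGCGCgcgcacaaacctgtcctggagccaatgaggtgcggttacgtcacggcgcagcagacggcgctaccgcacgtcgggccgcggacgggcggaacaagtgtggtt
Ndufs3, chr2:90904672-90904971, minus strand: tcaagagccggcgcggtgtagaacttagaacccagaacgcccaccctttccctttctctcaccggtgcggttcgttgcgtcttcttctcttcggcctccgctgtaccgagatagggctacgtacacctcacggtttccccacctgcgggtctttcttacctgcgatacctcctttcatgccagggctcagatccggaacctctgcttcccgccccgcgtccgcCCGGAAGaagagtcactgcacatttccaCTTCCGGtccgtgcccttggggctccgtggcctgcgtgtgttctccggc
Ndufs4, chr13:114388045-114388344, minus strand: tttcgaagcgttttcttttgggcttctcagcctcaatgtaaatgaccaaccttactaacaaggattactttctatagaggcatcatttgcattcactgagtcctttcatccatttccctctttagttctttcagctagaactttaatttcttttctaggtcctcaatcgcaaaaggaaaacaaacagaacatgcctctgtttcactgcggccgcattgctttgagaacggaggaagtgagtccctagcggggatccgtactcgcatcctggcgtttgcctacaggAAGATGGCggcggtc

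Members were detected throughout the tissue. Summed over the 25 libraries, a member had 3 to 977 UMIs with a median of 249, and 74 of the 77 passed the filter on low counts of at least 3 UMIs in at least 3 libraries. Complex IV subunits gave the most UMIs per gene, with 977 for Cox8a and 966 for Cox6a1. Uqcrq and Uqcrh of complex III had 795 and 742, Atp5j2 and Atp5e of complex V 839 and 742, and Ndufa3 and Ndufa10 of complex I 498 and 370. The 3 members that did not pass were Ndufb8 with 16 UMIs, Atp5s with 5 and Cox6a2, the heart and muscle form of Cox6a1, with 3. Because a UMI marks a 3′ end, these totals order capture and need not order transcript abundance.

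**Figure D1:**
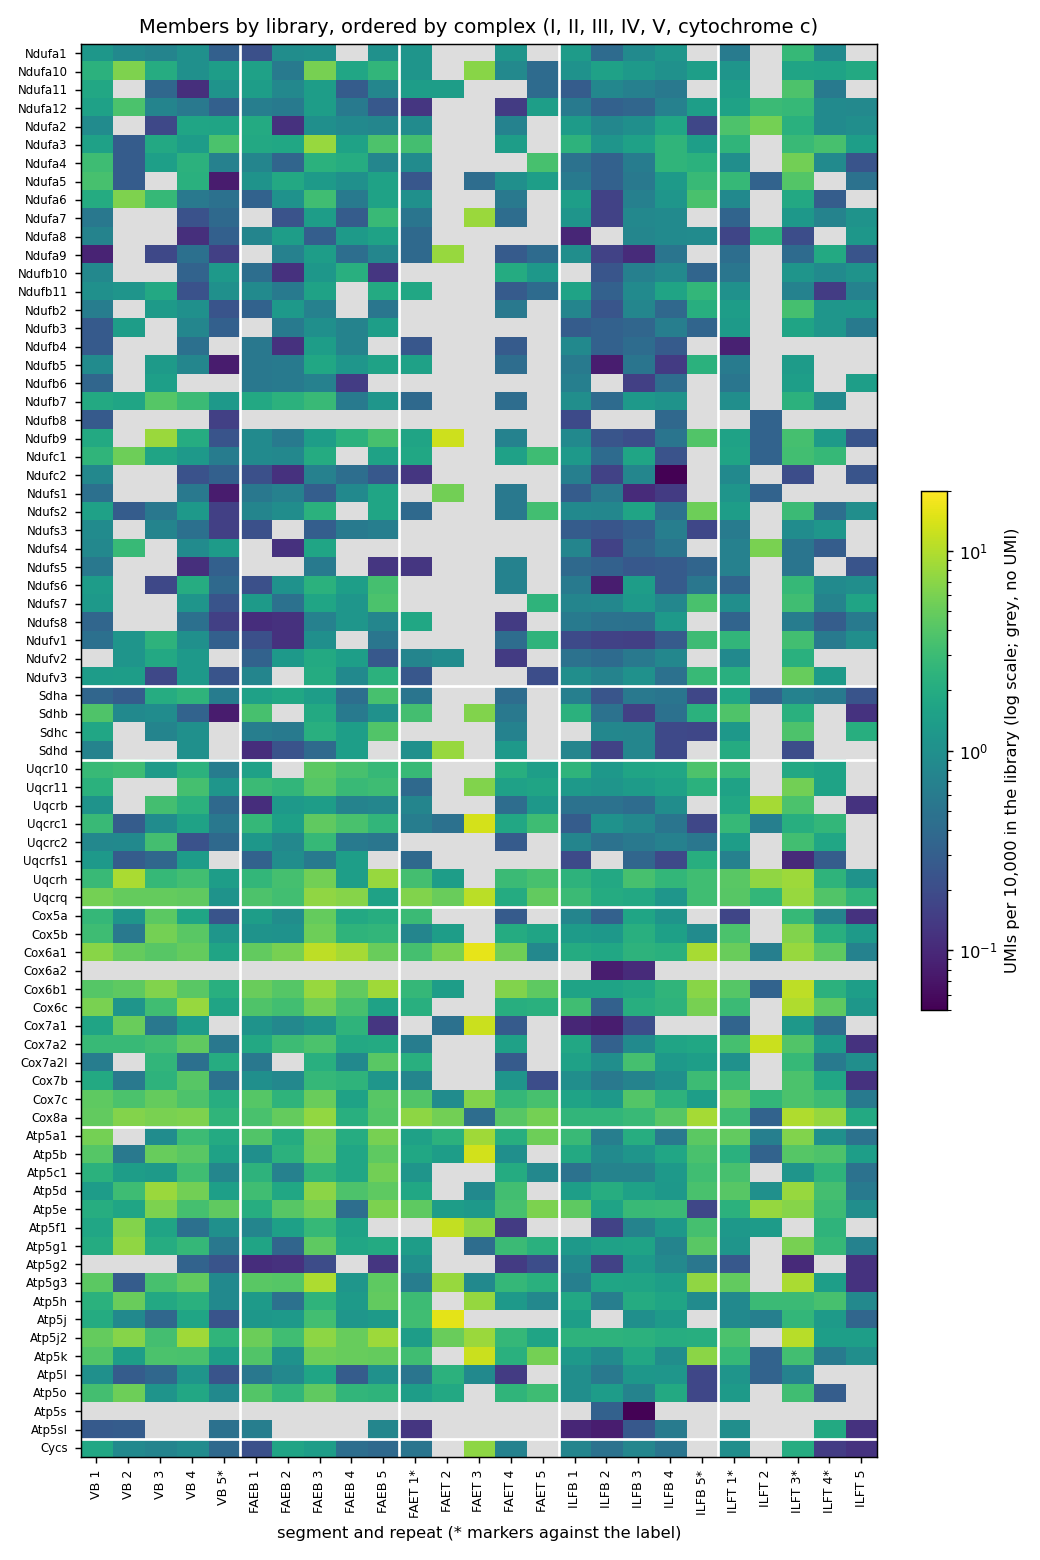
UMIs of each of the 77 members per 10,000 UMIs of the library, on a log colour scale, with the 25 libraries in columns by segment and repeat and grey for no UMI. FAET repeats 2 and 3 show a UMI for 24 and 23 of the 77 members.

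Fewer members were detected in 3 of the 5 FAET libraries. The number of members with a UMI was 49 to 73 in the VB, 64 to 73 in the FAEB, 23 to 61 in the FAET, 54 to 76 in the ILFB and 28 to 74 in the ILFT. Thinned by calculation to 21529 UMIs, the depth of the smallest library, the expected number was 54.2 ± 9.12 in the VB, 59.4 ± 5.54 in the FAEB, 35.6 ± 13.1 in the FAET, 54.1 ± 6.38 in the ILFB and 48.8 ± 17.6 in the ILFT (mean ± SD, n = 5 each). FAET repeats 1 and 4, at 50.1 and 48.7, lay within the VB range of 44.2 to 65.2, and repeats 2, 3 and 5, at 24.0, 22.8 and 32.6, lay below it. These 3 libraries held 1507, 1956 and 3422 genes of any kind with a UMI, against 2632 to 9636 in the VB libraries, and the part of that in the result was not tested. In the 2 smallest libraries the largest member took 14.5% (Atp5j, FAET repeat 2) and 10.1% (Cox6a1, FAET repeat 3) of all member UMIs. It took 7.39% to 7.59% in the other FAET libraries and 4.59% to 7.74% in the VB and FAEB libraries. ILFT repeat 2, of 29987 UMIs, was similar, with 17.5% in Cox7a2.

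The summed share of the 77 members was higher in epithelium than in follicle on average, with wide overlap. Per 10,000 UMIs it was 148.8, 127.1, 140.5, 147.7 and 60.3 in VB repeats 1 to 5. In the FAEB it was 108.0, 94.6, 221.3, 114.0 and 166.5. In the FAET it was 96.0, 108.7, 157.0, 83.9 and 83.3. The VB was even apart from repeat 5, 1 of the 6 libraries whose markers went against the label, and FAEB repeat 3 was the highest of the epithelial libraries. In the ILFB the share was 82.3, 51.0, 83.6, 80.9 and 140.2, and in the ILFT 135.4, 70.4, 240.0, 99.5 and 42.6. The 4 ILF libraries above 90 per 10,000 were ILFB repeat 5 and ILFT repeats 1, 3 and 4, the same 4 in which pan-epithelial genes outweighed pan-leukocyte genes. Mean shares were 124 ± 40.9 in the epithelium (n = 15) and 103 ± 57.7 in the ILF (n = 10), a ratio of 1.21. Within repeats 1 to 5 the ratio was 1.08, 1.81, 1.07, 1.28 and 1.13, above 1 in every repeat.

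**Figure D2:**
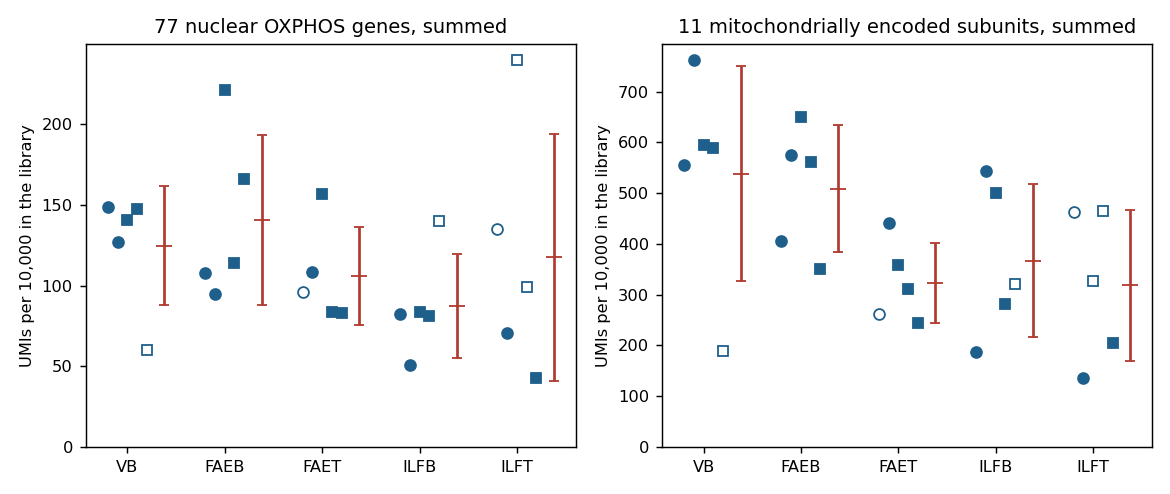
Summed UMIs of the 77 members (left) and of 11 mitochondrially encoded subunits (right) per 10,000 UMIs of the library, by segment. Circles are mouse 1 and squares mouse 2, open symbols are the 6 libraries whose markers went against the label, and red marks give mean ± SD of 5 libraries. The filled ILF symbols lie at or below 83.6 in the left panel.

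Without those 6 libraries the compartments lay further apart. The share was 131 ± 38.6 in 13 epithelial libraries and 68.5 ± 17.6 in 6 ILF libraries, a ratio of 1.91. The lowest epithelial value was 83.3, in FAET repeat 5, and the highest ILF value 83.6, in ILFB repeat 3, so that the ranges still overlapped slightly. By complex, this setting gave 42.5 ± 13.6 against 17.9 ± 5.71 for complex V, and the ranges, 26.4 to 67.8 and 8.59 to 22.9, did not overlap. Complex IV gave 33.4 ± 11 against 16.1 ± 5.36, and complex III 18.4 ± 6.75 against 10.4 ± 5.23. Complex I was closer, with 30.7 ± 12.4 against 21.7 ± 5.42. The choice of these libraries was made after the data were seen, so the wider difference is a description, with no test.

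On average complex I took a larger and complex V a smaller part of the member UMIs in the ILF, with overlapping libraries. Over all libraries complex I made up 23.9% ± 5.03 of member UMIs in the epithelium (n = 15) and 30.8% ± 5.61 in the ILF (n = 10). Complex V made up 32.2% ± 5.08 and 26.7% ± 3.37. By segment, complex I ran from 20.6% ± 6.59 in the FAET to 31.1% ± 7.92 in the ILFT, and complex V from 25% ± 3.88 in the ILFT to 35.7% ± 6.96 in the FAET (SD, n = 5). The FAET values for complex I included 9.84%, in repeat 3. ILFT repeat 5 held 45.1% in complex I, and the other ILFT libraries 26.1% to 29.2%. FAET repeats 2 and 3, the smallest libraries, held 45.7% and 39.3% in complex V. The other FAET libraries held 27.8% to 34.0% in complex V, and the FAEB libraries 25.8% to 34.2%. Complexes III and IV differed less than the spread among libraries, at 13.9% ± 3.46 and 25.7% ± 4.40 in the epithelium against 14.3% ± 5.22 and 24.5% ± 3.12 in the ILF. Without the 6 libraries, complex I was 23.3% ± 4.83 and 32.4% ± 6.91 and complex V 32.5% ± 5.33 and 25.9% ± 4.07.

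**Figure D3:**
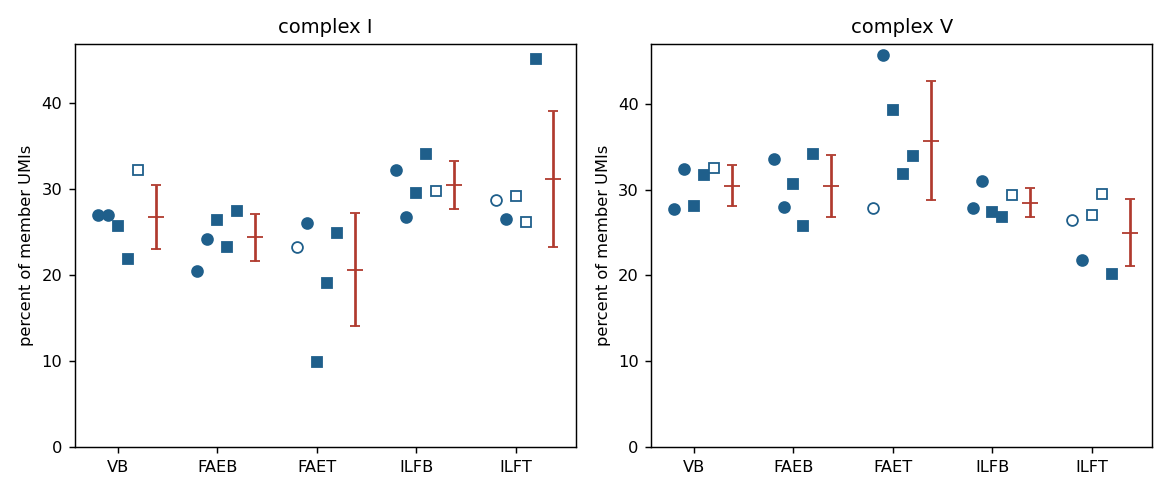
Percent of all member UMIs that fell on complex I (left) and complex V (right) in each library, by segment, with symbols as for the summed shares and red mean ± SD of 5 libraries. Complex I averaged 30.8% in the ILF and 23.9% in the epithelium, with overlapping libraries.

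The mitochondrially encoded subunits were read beside the nuclear ones. For 11 of 13 such genes in the table, the summed share per 10,000 UMIs was 457 ± 170 in the epithelium and 343 ± 143 in the ILF. It was 538 ± 212 in the VB, 509 ± 126 in the FAEB and 323 ± 79.6 in the FAET, the lowest of the epithelial segments. VB repeat 5, whose markers went against its label, had 188, and the other VB libraries 556 to 763. Epithelium over ILF within repeats 1 to 5 was 1.26, 1.74, 1.29, 1.31 and 0.995. Without the 6 libraries it was 2.58, 1.74, 1.07, 1.73 and 1.46. The ratio of nuclear to mitochondrially encoded UMIs was 0.248 ± 0.0556 in the VB, 0.290 ± 0.123 in the FAEB and 0.333 ± 0.0765 in the FAET. In the ILFB it was 0.285 ± 0.157 and in the ILFT 0.393 ± 0.227, so all segments overlapped. The extremes of that ratio were 0.0938 in ILFB repeat 2 and 0.733 in ILFT repeat 3, whose markers went against its label.

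Segments were compared gene by gene on the UMI counts. The quasi-likelihood test of edgeR was fitted to the 9956 genes that passed the filter, with mouse as a term and Benjamini-Hochberg adjustment over all of them. Epithelium against ILF was the contrast with the most calls, at 302 genes or 3.03% of those tested. Of the 74 members tested, 1 rose and none fell: Cox7a1, which encodes the form of the complex IV subunit VIIa best known from heart and skeletal muscle. Under an unadjusted p of 0.05, 1 member was higher and 1 lower, where all genes gave 4.02% higher and 15% lower. The median log2 fold change of the members was 0.22, and 45 of 74 were above 0, against a median of -0.48 over all genes tested. The median member was thus 0.70 above the median gene on the log2 scale. A gap was also computed repeat by repeat without the fit, on log2 shares with 0.5 UMIs added. It was 0.04, 0.87, -0.47, 0.67 and 0.12 (SD 0.53), below 0 in repeat 3. That SD is thus not a spread around the fitted 0.70.

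Cox7a1 (ENSMUSG00000074218, chromosome 7, 30184144 to 30186078, plus strand, GRCm38) had 18, 18, 3, 12 and 0 UMIs in VB repeats 1 to 5. It had 10, 7, 11, 17 and 1 in the FAEB and 0, 1, 29, 2 and 0 in the FAET. In the ILFB it had 1, 1, 4, 0 and 0, and in the ILFT 4, 0, 12, 3 and 0. The VB and FAEB libraries were mostly high, FAET repeat 3 alone held 29 of the 32 FAET UMIs, and the highest ILF library was ILFT repeat 3, whose markers went against its label. Pooled, Cox7a1 took 1.19 UMIs per 10,000 in the epithelium and 0.230 in the ILF. The fitted log2 fold change was 2.93 (SE 0.85, edgeR adjusted p = 0.0301), and the epithelial mean was the higher in 5 of 5 repeats. In repeat 5 that rested on 1 UMI, in the FAEB.

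The call for Cox7a1 rested on few libraries. With the repeat as a block the log2 fold change was 3.05 and the adjusted p 0.062. Without FAET repeats 2 and 3 it was 1.70 with an adjusted p of 0.33, and in mouse 1 or mouse 2 alone it was 2.40 and 2.55 with adjusted p of 0.938 and 0.222. Leaving out repeat 1, 2, 3 or 4 also ended the call (edgeR adjusted p of 0.0636, 0.124, 0.205 and 0.215), and leaving out repeat 5 did not. Without the 6 libraries that went against their labels, a choice made after the data were seen, it was 5.24 (SE 1.30, edgeR adjusted p = 0.00177). The ILFT libraries left in that fit, repeats 2 and 5, had 0 Cox7a1 UMIs. DESeq2, which gave no adjusted p for Cox7a1, and limma-voom (adjusted p = 0.15) called 0 members in this contrast.

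**Figure D4:**
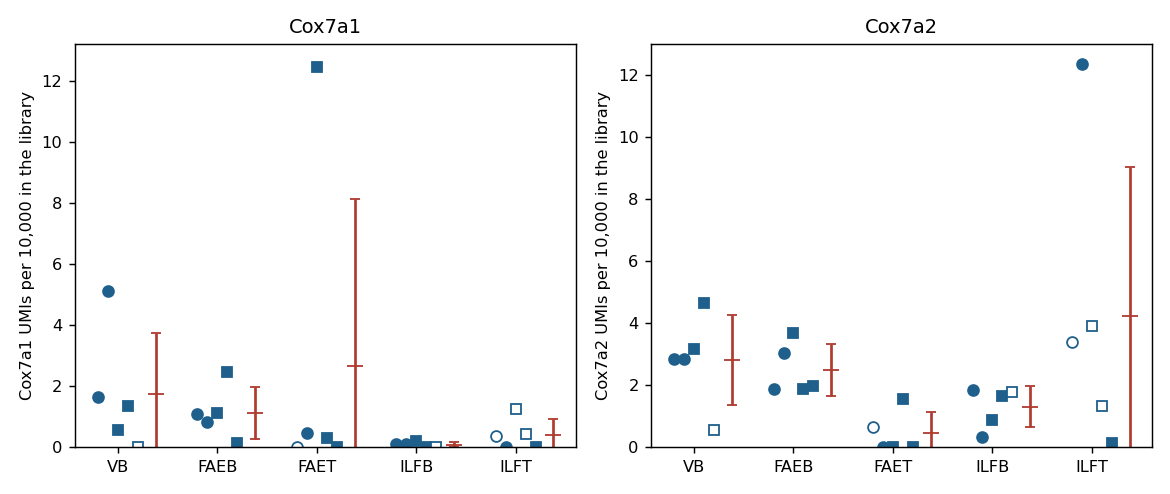
UMIs of Cox7a1 (left) and Cox7a2 (right) per 10,000 UMIs of the library, by segment, with symbols as for the summed shares and red mean ± SD of 5 libraries. Cox7a1 stays at or below 0.207 in the ILFB, and FAET repeat 3 reaches 12.4.

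For the paralog Cox7a2, the form present in most tissues, no such difference was detected. Cox7a2 had 31, 10, 17, 41 and 7 UMIs in the VB, 17, 26, 37, 13 and 15 in the FAEB, and 5, 0, 0, 11 and 0 in the FAET. In the ILFB it had 19, 4, 17, 35 and 10, and in the ILFT 39, 37, 38, 9 and 1. No Cox7a2 UMI was found in 3 FAET libraries, and ILFT repeat 2, of 29987 UMIs, held 37 of the 209 ILF UMIs. Its fitted log2 fold change in epithelium against ILF was -0.23 (SE 0.68, edgeR adjusted p = 0.938). Of the UMIs on both genes, Cox7a1 took 35.9% in the epithelium (129 of 359, Wilson 95% interval 31.1% to 41.0%) and 10.7% in the ILF (25 of 234, 7.34% to 15.3%). By segment that percent was 32.5 in the VB, 29.9 in the FAEB, 66.7 in the FAET, 6.59 in the ILFB and 13.3 in the ILFT. Without FAET repeat 3 it was 15.8 in the FAET and 30.3 in the epithelium, and without ILFT repeat 2 it was 12.7 in the ILF. It was 37.2 in the epithelium and 5.04 in the ILF when the 6 libraries were left out. The intervals cover counting error only, and the libraries differed more.

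No other member was called in this contrast. Those with the smallest p above 0, after Cox7a1, were Ndufs1, a core iron-sulfur subunit of complex I, at 1.64, Atp5o, the stalk protein that holds the head of ATP synthase, at 1.30, Uqcrc1, a core protein of complex III, at 1.21, and Atp5k of complex V at 1.01. Below 0 they were Ndufb3 (-1.75), Ndufs3 (-1.63), Ndufb6 (-1.56), Ndufs4 (-1.54) and Ndufv3 (-1.35), all of complex I, with adjusted p of 0.228 to 0.311. Above 0 were 13 of 34 tested members of complex I, 3 of 4 of complex II, 6 of 8 of complex III, 8 of 11 of complex IV and 14 of 16 of complex V, and Cycs stood at 0.80.

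Without the 6 libraries 8 of 74 members rose in the epithelium and none fell, or 10.8% of the members where 17.3% of all genes were called. They were Cox7a1, Atp5g3, Atp5o, Uqcr11, Uqcr10, Uqcrc1, Ndufb9 and Cox6a1, with log2 fold changes of 2.41 to 5.24 and edgeR adjusted p of 0.00177 to 0.0396. The largest after Cox7a1 was Atp5o at 4.12 (SE 1.17). In this fit the ILFT was repeats 2 and 5 alone, and both held few UMIs of these members. Repeat 2 had 29987 UMIs in all. Cox7a1, Atp5o, Uqcr11 and Uqcr10 had 0 in both. Atp5g3 had 0 and 1, Uqcrc1 2 and 0, Ndufb9 1 and 2, and Cox6a1 2 and 6. In ILFB repeats 1 to 4, Atp5o had 10, 17, 14 and 41 UMIs. The part of these ILFT libraries in the fold changes was not tested. The median of the members was 1.35, against -0.52 over all genes. With the repeat as a block as well, Cox7a1, Atp5g3, Atp5o and Ndufb9 were called, where 9.25% of all genes were. The share of members called was below that of all genes in both of these fits. The 6 libraries were chosen after the data were seen. The ILF libraries among them had the highest summed shares of members in the ILF, and VB repeat 5 the lowest in the epithelium. The p-values of fits without these libraries do not allow for that choice, and the calls are a description.

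Across the 5 segments together, 0 of 74 members passed the edgeR test, where 178 genes or 1.79% did. Under an unadjusted p of 0.05 there were 4, or 5.41%, against 22.2% of all genes: Cox7a1, Ndufs4, Ndufb3 and Ndufb7. DESeq2 and limma-voom also called 0. Leaving out the 6 libraries, 10 members passed, where 18.2% of all genes did: Cox5a, Cox7a1, Atp5g3, Atp5o, Ndufa6, Ndufb7, Ndufv3, Uqcr10, Uqcrc2 and Uqcrfs1. With the block as well, 2 passed, Cox7a1 and Ndufb7, where 9.88% of all genes did.

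The FAET had lower values of most members than either neighbouring epithelial segment, without a call. Against the VB, 63 of 74 members were below 0 with a median log2 fold change of -0.92, where the median of all genes was -0.56. The edgeR test called 0 members, where 1 gene or 0.01% of all was called, and DESeq2 and limma-voom called 0 members. At an unadjusted p under 0.05, 12 members (16.2%) were lower, against 9.54% of all genes, and 0 were higher, against 2.93%. By complex these were 8 of complex I, 2 of complex III, and 1 each of complexes II and IV, and 0 of the 16 tested members of complex V. Against the FAEB, also 63 members were below 0 with a median of -1.15, where all genes had -0.48. Again 0 were called by any of the 3 tools, where edgeR called 0 genes or 0% of all. At an unadjusted p under 0.05, 14 members (18.9%) were lower, against 9.61% of all genes, and 0 were higher, against 4.69%. Both comparisons share the 5 FAET libraries and so are not separate evidence.

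**Figure D5:**
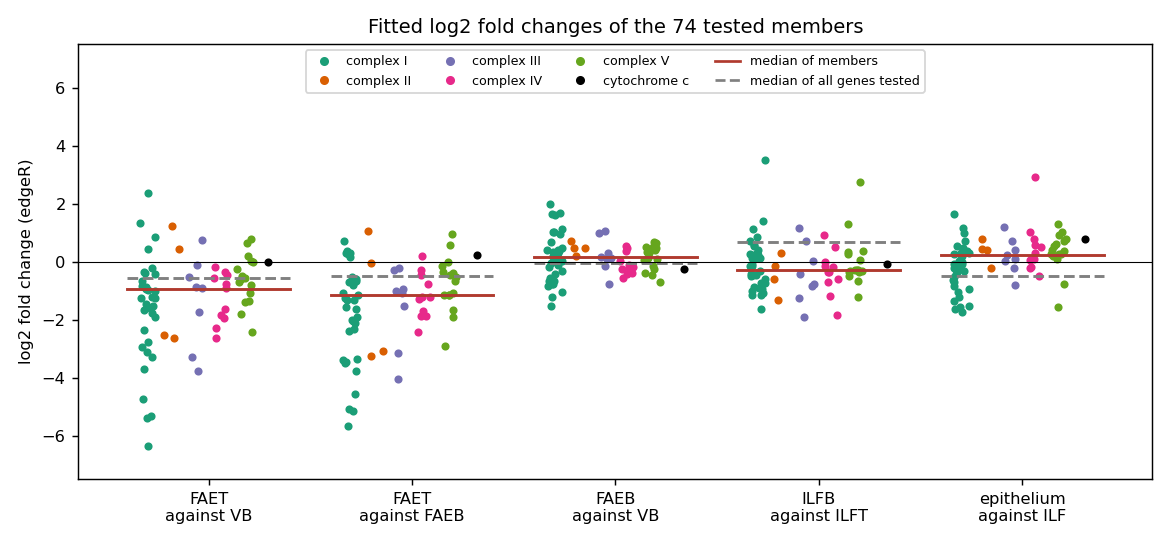
Fitted log2 fold changes of the 74 tested members in 5 comparisons (points, coloured by complex), with the median of the members (red line) and of all genes tested (dashed). The red line lies below the dashed line in both FAET comparisons, at -0.92 and -1.15, and in ILFB against ILFT, at -0.29.

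The 4 tested members without a UMI in the FAET were all complex I subunits. Ndufs4, an accessory subunit of the NADH-oxidising arm (chromosome 13, 114287795 to 114388258, minus strand), had 9, 10, 0, 8 and 17 UMIs in the VB, 0, 1, 17, 0 and 0 in the FAEB and 0 in all 5 FAET libraries. Ndufb3, an accessory subunit of the membrane arm, had 3, 5, 0, 7 and 4 in the VB, 0, 5, 10, 5 and 11 in the FAEB and 0 in the FAET. Ndufs3, a core subunit near the ubiquinone site, had 10, 0, 4, 4 and 2, then 2, 0, 3, 4 and 5, and 0 in the FAET. Ndufb6, also of the membrane arm, had 4, 0, 8, 0 and 0, then 5, 5, 7, 1 and 0, and 0 in the FAET. These 4 of 74 members (5.41%) were at 0 in all FAET libraries, where 20.2% of all tested genes were. The FAET libraries held 242610 UMIs together, so that 3 UMIs, the limit a count of 0 allows, amount to 0.124 per 10,000. The pooled VB share was 8.57 times that floor for Ndufs4, 3.89 times for Ndufs3, 3.70 times for Ndufb3 and 2.34 times for Ndufb6. The pooled FAEB share was 5.92 times the floor for Ndufb3, 3.44 times for Ndufs4 and Ndufb6 and 2.67 times for Ndufs3. These folds allow for counting error in the FAET only, and not in the VB or FAEB count. A pair of them rest on 1 library. FAEB repeat 3 held 17 of the 18 FAEB UMIs of Ndufs4, and VB repeat 3 held 8 of the 12 VB UMIs of Ndufb6. Without that library the other group lay under the floor, at 0.031 per 10,000 for Ndufs4 in the FAEB and 0.111 for Ndufb6 in the VB. VB repeat 5, whose markers went against its label, held 17 of the 44 VB UMIs of Ndufs4, and without it the fold over the floor was 7.59. Ndufb8, which was not tested, was also at 0 in the FAET, with 5 UMIs in the VB.

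Other low members kept a few FAET UMIs. Ndufb7, of the membrane arm, had 21, 6, 22, 26 and 16 UMIs in the VB, 17, 20, 29, 4 and 9 in the FAEB and 3, 0, 0, 3 and 0 in the FAET. Per 10,000 UMIs the FAET libraries lay at 0 to 0.424, below all VB libraries (1.25 to 4.08) and all FAEB libraries (0.578 to 2.89). The values of 0 were in FAET repeats 2, 3 and 5, which held 1507, 1956 and 3422 genes with a UMI. How many of all genes lay apart in this way was not counted. Its log2 fold change was -3.71 against the VB (SE 1.29, edgeR adjusted p = 0.345) and -3.40 against the FAEB (SE 1.28, adjusted p = 0.307). Uqcrc2, a core protein of complex III, had 9, 3, 18, 2 and 5, then 11, 7, 28, 4 and 4, and 0, 0, 0, 2 and 0 in the FAET, with -3.76 (SE 1.45) and -4.05 (SE 1.45). Cox7a2 stood at -2.64 (SE 1.16) and -2.42 (SE 1.15). Adjusted p-values of the 5 lowest in each comparison, Ndufs4, Ndufb3, Ndufb7, Ndufs3 and Uqcrc2 against the VB and Ndufb3, Uqcrc2, Ndufs4, Ndufb6 and Ndufb7 against the FAEB, were 0.345 and 0.307.

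The few members above 0 in the FAET were led by Ndufa9 (2.36 against the VB), Ndufa7 (1.34), Sdhd (1.24), Ndufs1 (0.83) and Uqcrc1 (0.74), and against the FAEB by Sdhd (1.06), Atp5g2 (0.94), Ndufa9 (0.70), Atp5f1 (0.57) and Ndufb9 (0.36). No edgeR adjusted p among them was below 0.471. For Ndufa9, Sdhd and Ndufs1 the largest FAET count was in repeat 2 (17, 17 and 12 UMIs). Atp5f1 and Ndufb9 also had their largest in repeat 2 (25 and 27), and Ndufa7 and Uqcrc1 in repeat 3 (19 and 32). For Atp5g2 the largest was in repeat 1 (8). Without FAET repeats 2 and 3, 8 members against the VB and 9 against the FAEB were lower at an unadjusted p under 0.05, where 4.71% and 4.57% of all genes were. The medians were -0.77 and -1.10, with -0.22 and -0.16 over all genes. Within repeats, taken without the fit as above, the median of the members less that of all genes was -1.44, -1, -2.32, -1.12 and 0.85 against the VB. The gap was positive in repeat 5, where the VB library went against its label. Against the FAEB it was -0.58, -2.94, -3.26, -0.58 and -2.32, negative in all 5. In FAET repeats 2, 3 and 5 only 24, 23 and 36 members had a UMI, and most were at 0. The gaps of these repeats thus depend on the 0.5 UMIs added before the log, and the part of that was not tested. In repeats 1 and 4, with 60 and 61 members detected in the FAET, the gap was -1.44 and -1.12 against the VB. Against the FAEB it was -0.58 in both of these repeats. With edgeR fitted to mouse 2 alone, the members stood 0.42 above all genes against the VB, and fitted to mouse 1 alone 1.58 below. Without the 6 libraries, 19 members were lower than in the VB and 24 lower than in the FAEB under an unadjusted p of 0.05, where 10.7% and 14.8% of all genes were, and 0 were called. The medians were then -1.64 and -1.23, where all genes had -0.62 and -1.22, so that against the FAEB the members no longer stood below the median gene. Pan-epithelial genes also had negative medians in the FAET (12 of 15 tested below 0, median -0.83 against the VB and -1.13 against the FAEB), and their part in the result was not tested.

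Complex II was uneven in the FAET. Sdha, the flavoprotein that oxidises succinate, had 4, 1, 11, 22 and 8 UMIs in the VB, 14, 15, 14, 3 and 27 in the FAEB and 4, 0, 0, 3 and 0 in the FAET, with a log2 fold change of -2.61 (SE 1.31) and -3.09 (SE 1.30) against VB and FAEB. Sdhc, a membrane anchor, had 0, 0, 0, 5 and 0 in the FAET, with -2.53 and -3.25. The iron-sulfur subunit Sdhb (26, 0, 15, 4 and 0 UMIs) stood at 0.43 and -0.04. The other anchor, Sdhd (8, 17, 0, 9 and 0), stood at 1.24 and 1.06. No complex II member was called in any comparison. Cycs, the electron carrier between complexes III and IV, had 4, 0, 17, 5 and 0 UMIs in the FAET and stood at -0.02 (SE 1.30) and 0.22 (SE 1.22).

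Between the FAEB and the VB no member was found to differ. The median log2 fold change was 0.15 against -0.03 over all genes, and 45 of 74 members were above 0. The edgeR test called 0 members, where 0.0201% of all genes were called, and DESeq2 and limma-voom called 0. At an unadjusted p under 0.05 there were 0 higher and 0 lower, against 3.35% and 5.6% of all genes. The 5 highest by p were Ndufa8 (2.00, higher in 5 of 5 repeats), Ndufa9 (1.66), Ndufs1 (1.65), Ndufb4 (1.62) and Uqcrc1 (1.04). The 5 lowest were Ndufv1 (-1.51), Ndufs4 (-1.21), Ndufc1 (-1.04), Ndufa4 (-0.84) and Uqcrb (-0.78). Ndufs1 was also higher in 5 of 5 repeats. The standard errors of these 10 were 1.08 to 1.44, about as large as the fold changes. With the 6 libraries left out, 35 of 74 members were above 0, with a median of -0.02, where all genes had 0.33. The median of members less that of all genes, 0.18 over all libraries, thus turned to -0.35. It was also negative in mouse 1 alone (-0.57) and without repeat 5 (-0.27).

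Within the follicle, the median member was lower in the ILFB than in the ILFT while the median gene was higher. Their median was -0.29, with 47 of 74 below 0, where all genes had a median of 0.66. The edgeR test called 0 members, where 0.0904% of all genes were called, and the other tools called 0. At an unadjusted p under 0.05, 1 member was higher, against 11.5% of all genes, and 0 were lower, against 2.75%. This was Ndufb4, an accessory complex I subunit, with 9, 4, 8, 6 and 0 UMIs in the ILFB and 1, 0, 0, 0 and 0 in the ILFT (3.51, SE 1.58, edgeR adjusted p = 0.259). Next were Atp5g2 (2.76), Ndufb11 (1.40), Atp5l (1.31) and Ndufa6 (1.14), and below 0 Uqcrb (-1.91), Cox7a1 (-1.85), Ndufv1 (-1.64), Sdhc (-1.32) and Uqcrc1 (-1.26). With limma-voom the median of the members was 0.34, with 44 above 0, where all genes had 0.58.

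This order turned without the 6 libraries. In the 4 ILFB and 2 ILFT libraries that were left, 65 of 74 members were above 0 with a median of 2.07, beside 1.88 over all genes, and Cox7a1 moved to 3.09. Under an unadjusted p of 0.05, 19 members were higher, or 25.7%, where 11.8% of all genes were, and 0 were called. Of the libraries left out, ILFT repeats 1, 3 and 4 had 54.9 to 87.4 pan-epithelial UMIs per 10,000, against 14.3 and 6.68 in ILFT repeats 2 and 5. Pan-epithelial genes were lower in the ILFB over all libraries (14 of 15 below 0, median -1.58), and their part in the first order was not tested. With 2 ILFT libraries left, 1 from each mouse, the second order rests on ILFT repeats 2 and 5.

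The 3 Atp5g genes encode the same mature c subunit of the ATP synthase ring from different precursors, and their pooled proportions are given by segment. Atp5g3 had the most UMIs in each segment, with 45.5% of the 3 genes' UMIs in the ILFB to 69.2% in the FAEB. Atp5g2 took 2.76% in the VB, 1.62% in the FAEB, 9.26% in the FAET, 19.2% in the ILFB (56 of 292, Wilson 95% interval 15.1% to 24.1%) and 1.95% in the ILFT (5 of 257, 0.834% to 4.47%). Its counts were 9, 2, 24, 18 and 3 in ILFB repeats 1 to 5 and 3, 0, 1, 0 and 1 in the ILFT. As a share of all UMIs of the library, Atp5g2 was higher in the ILFB in 5 of 5 repeats. The edgeR test, also on whole libraries, gave an adjusted p of 0.402, so that the difference did not pass. As a percent of the 3 genes' UMIs, repeat 5 went the other way. There Atp5g2, Atp5g1 and Atp5g3 had 3, 24 and 42 UMIs in the ILFB and 1, 6 and 1 in the ILFT. ILFT repeat 2 had no UMI of the 3 genes, so that no percent exists there. The intervals cover counting error only, and in 3 of the 5 ILFT libraries pan-epithelial genes outweighed pan-leukocyte genes. FAET repeat 1, whose markers were leukocytic, held 8 of the 10 FAET UMIs. Without the 6 libraries Atp5g2 took 1.70% of the 3 genes' UMIs in the epithelium and 23.4% in the ILF, of which 53 of 54 UMIs were in the ILFB. The 2 ILFT libraries left held 8 UMIs of the 3 genes, too few for a share.

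The other isoform families gave no call over all libraries. Cox6a1 had 75, 17, 23, 43 and 21 UMIs in the VB and 43, 50, 110, 61 and 39 in the FAEB, with an epithelium against ILF log2 fold change of 0.77 (SE 0.66, edgeR adjusted p = 0.563). Its paralog Cox6a2 had 1 and 2 UMIs in ILFB repeats 2 and 3 and none elsewhere. Cox8a stood at 0.29 (SE 0.66), and its UMIs per 10,000 were 4.76 ± 1.99 in the epithelium (n = 15) and 4.42 ± 3.25 in the ILF (n = 10). Cox6b1 had 4.47 ± 2.31 and 3.38 ± 3.26, and Cox6c, Cox7b, Cox7a2l and Ndufa4 had 711, 314, 316 and 311 UMIs in all. Over all libraries none of them was called in any comparison, and without the 6 libraries Cox6a1 was called in epithelium against ILF, as above.

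No difference between the mice was detected in epithelium against ILF. A term for mouse by compartment called 0 of 74 members with edgeR, where 0.0201% of all genes were called, and 1 member was under an unadjusted p of 0.05, where 3.83% of all genes were. Mean summed shares were 114 ± 20.7 and 84.8 ± 36.2 in the epithelium and ILF of mouse 1 (n = 6 and 4), and 130 ± 50.3 and 114 ± 69.1 in mouse 2 (n = 9 and 6).

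Other genes of the pathway were read from lists of known function. Of 29 tested assembly factors 0 were called in any of the 5 comparisons, with medians of -0.59 and -1.32 in the FAET against VB and FAEB, 0.91 in ILFB against ILFT and -0.15 in epithelium against ILF. The 14 enzymes of the tricarboxylic acid cycle had -1.48, -0.88, 0.67 and 0.27, and 0 were called. Of 13 nuclear regulators, such as Nrf1, Gabpa and Tfam, 0 were called, with -0.17, -1.40, 0.13 and 0.13. The 9 partners outside the name rule, such as Cyc1 and the ADP/ATP carrier Slc25a5, had -1.60, -1.86, -0.49 and 0.33, with 0 called. The 11 mitochondrially encoded subunits had -1.06, -1.26, 0.14 and 0.33, all 11 below 0 in both FAET comparisons, and 0 were called. Of 68 mitochondrial ribosomal protein genes 1 rose in the epithelium, with medians of -1.27, -1.57, 0.47 and -0.34. All these lists, like the members and all genes, had negative medians in both FAET comparisons.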

How the data were processed

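The authors sequenced 25 LCM segments with mcSCRB-seq (the labels also name a SMARTseq kit for LCM), converted reads with bcl2fastq 2.15.0.4 (per the labels), aligned them to GRCm38 with zUMIs and STAR and deposited UMI counts per gene, not normalized. Versions of zUMIs and STAR: not given in the sources used. Every sample column was matched to its label, and 0 columns had no sample. Authors' counting may split UMIs between near-identical copies, such as Atp5l and Atp5k and their pseudogenes. Members, lists and tests were chosen with earlier results of these data known. Counts were tested with edgeR 4.0.16 (TMM, quasi-likelihood, terms for segment and mouse, a minimum of 3 UMIs in 3 of 25 libraries, adjusted p under 0.05). Common dispersion was 1.78. Standard errors are the log2 fold change divided by the square root of F. The script was tested on simulated data. DESeq2 1.42.0, limma 3.58.1, RLE factors, other library sizes, no filter, a replicate block, each mouse alone and repeats left out were alternatives. Repeats share an animal, so the numbers pair the samples. Same-repeat deviations from segment means correlated by 0.024 on average (50 pairs, -0.312 to 0.316). Repeats are dissections of 2 mice, so that p-values rest on the spread among dissections and not among animals. The closest libraries of a segment differed by a chi-square of 5.88 per degree of freedom. Named members were those called, the 5 smallest p in each direction, the 2 with most UMIs in a complex, isoform families, complex II and Cycs.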

Additional observations from a re-analysis of the deposited data

Results flagged for a closer look

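In 45 groups of 5 libraries (summed shares, the shares of complexes I to V, the nuclear to mitochondrial ratio, Cox7a1 and Cox7a2, by segment), the highest or lowest library was checked for a gap of over 0.71 of the group's range, which chance passes in about 1 of 20 groups. VB repeat 5 was far below the other VB libraries in the summed share of members (60.3 UMIs per 10,000), in complex III (5.63) and in complex V (19.6). ILFB repeat 5 was far above the other ILFB libraries in complex V (41.1 per 10,000). In both of these libraries the markers went against the label. FAEB repeat 3 was the highest FAEB library in complex IV, at 56.9 per 10,000. FAET repeat 3 was the highest FAET library in Cox7a1, at 12.4 per 10,000. The 4 Atp5l and Atp5k rows named as pseudogenes, which no comparison used, held 213 UMIs over the 25 libraries, of which Atp5l2-ps had 117.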

How the results depend on the processing

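Counts of members called were 0 under all alternatives in the 3 comparisons among epithelial segments and in ILFB against ILFT. In epithelium against ILF the count of 1 became 0 without the filter, with DESeq2, with limma-voom, with the replicate block, in mouse 1 or mouse 2 alone and without the 2 smallest libraries, lay between 0 and 1 with a repeat left out, and became 8 without the 6 libraries that went against their labels and 4 with the block as well. Across the segments the count of 0 became 1 (Cox7a1) with the library size that leaves out mitochondrially encoded genes and genes over 5%, and 10 and 2 in the last pair of settings. The median of members less that of all genes in FAET against VB (-0.36) was -1.58 in mouse 1 alone and 0.42 in mouse 2 alone, and lay between -1.07 and 0.17 with a repeat left out. In FAET against FAEB (-0.67) it was -0.01 without the 6 libraries. In ILFB against ILFT (-0.95) it was 0.19 without the 6 libraries and 0.14 with the block as well, and in epithelium against ILF (0.70) it was 1.87 and 2.01. The replicate block alone gave -0.50 in FAET against VB, -0.60 in FAET against FAEB, 0.33 in FAEB against VB (0.18), -0.91 in ILFB against ILFT and 0.79 in epithelium against ILF, and a mean ratio of summed shares within repeats of 1.27 in place of 1.21. That ratio was 1.13 to 1.27 with a repeat left out, 1.45 with the smaller library size and 1.91 without the 6 libraries. The causes were not tested. Over all libraries the block ended the call of Cox7a1 and changed no other. Without the 6 libraries it ended 4 calls in epithelium against ILF (Cox6a1, Uqcr10, Uqcr11 and Uqcrc1) and 8 across the segments. In FAEB against VB the median moved from 0.18 to -0.35 when they were left out.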
